A study of Mus musculus with 12 samples.

Results

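Dusp3, Mecom, Pacs2, Plpbp, Sirt1 and Stk40 each carried 1 m6A site that was higher and 1 separate m6A site that was lower in senescent than in young mouse embryonic fibroblasts. The 6 genes were chosen by the direction of these changes, that is, by having listed peaks in both of the authors' deposited tables, 1 of higher and 1 of lower peaks. They are 6 of the 633 genes with a listed peak, and their 24 listed peaks, 12 higher and 12 lower, are part of 1043. The direction and the size of each change therefore describe how the genes were chosen, and neither is tested here. In 4 of the 6 genes at least 1 transcript was listed in both directions, whereas in Mecom and Pacs2 the opposing peaks were listed for different transcripts.

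The cells were MEFs, primary fibroblasts from C57BL/6 mouse embryos, grown in DMEM with serum and passaged in culture without any other treatment that the labels name. The comparison was between P3 (young) and P9 (senescent), where P is the passage number. Each passage had 3 MeRIP libraries, made from the RNA fragments that an m6A antibody retained, and 3 input libraries, made from RNA without this step, 12 libraries in all. The labels do not say whether the replicates came from separate embryos or cultures. Expression levels were not used here, so the cell type was not checked against its marker genes.

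N6-methyladenosine is written on mRNA by a complex around METTL3 and METTL14, can be removed by FTO and ALKBH5, and is read by proteins such as those with a YTH domain. In mammalian mRNA it is commonest around the stop codon and in the 3' UTR, and it is known to act on the stability and translation of a transcript. One transcript can hold several methylated stretches. MeRIP-seq sees each of them as a peak about as wide as the RNA fragments, and a peak does not name the methylated base. No base sequence of the peaks is shown, because a genome sequence was not used here.

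The authors' deposited tables hold 1 row for each peak and transcript, with the exon blocks on mm10, the strand and the transcript region that the peak covers. They also hold a p-value and the authors' linear ratio of P9 to P3, called the fold here. The tables name the groups only as Treatment and Control, and Treatment was read as P9 from the number of peaks in each table. No value is given per library, and how the libraries of a passage entered the fold and the p-value is not stated. An error from replicates therefore cannot be given here, and library depth is unknown. The sources used here give neither the role of the input in the fold nor any adjustment of the p-value. Listed peaks of 1 gene and direction whose exon blocks overlap or touch were merged into a site, and the fold of a site is that of its transcript with the smallest p-value. Peaks of 1 site on several transcripts can share reads and are not independent.

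Opposing sites were uncommon among the listed genes. Of the 633 genes with a listed peak, 9 (1.42%) had sites in both directions. The genes in which such a pair could be seen were those with several sites, and 9 of these 21 (42.9%) had both directions, while 11 had only higher and 1 had only lower sites. The same count by transcript was 10 of 1013 listed transcripts (0.987%), and 10 of the 28 transcripts (35.7%) with several listed peaks. Of these 10 transcripts, 8 belonged to the 6 genes, out of their 16 listed transcripts. All these counts depend on which peaks passed the authors' threshold, since a site that missed it is not listed.

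**Figure D1:**
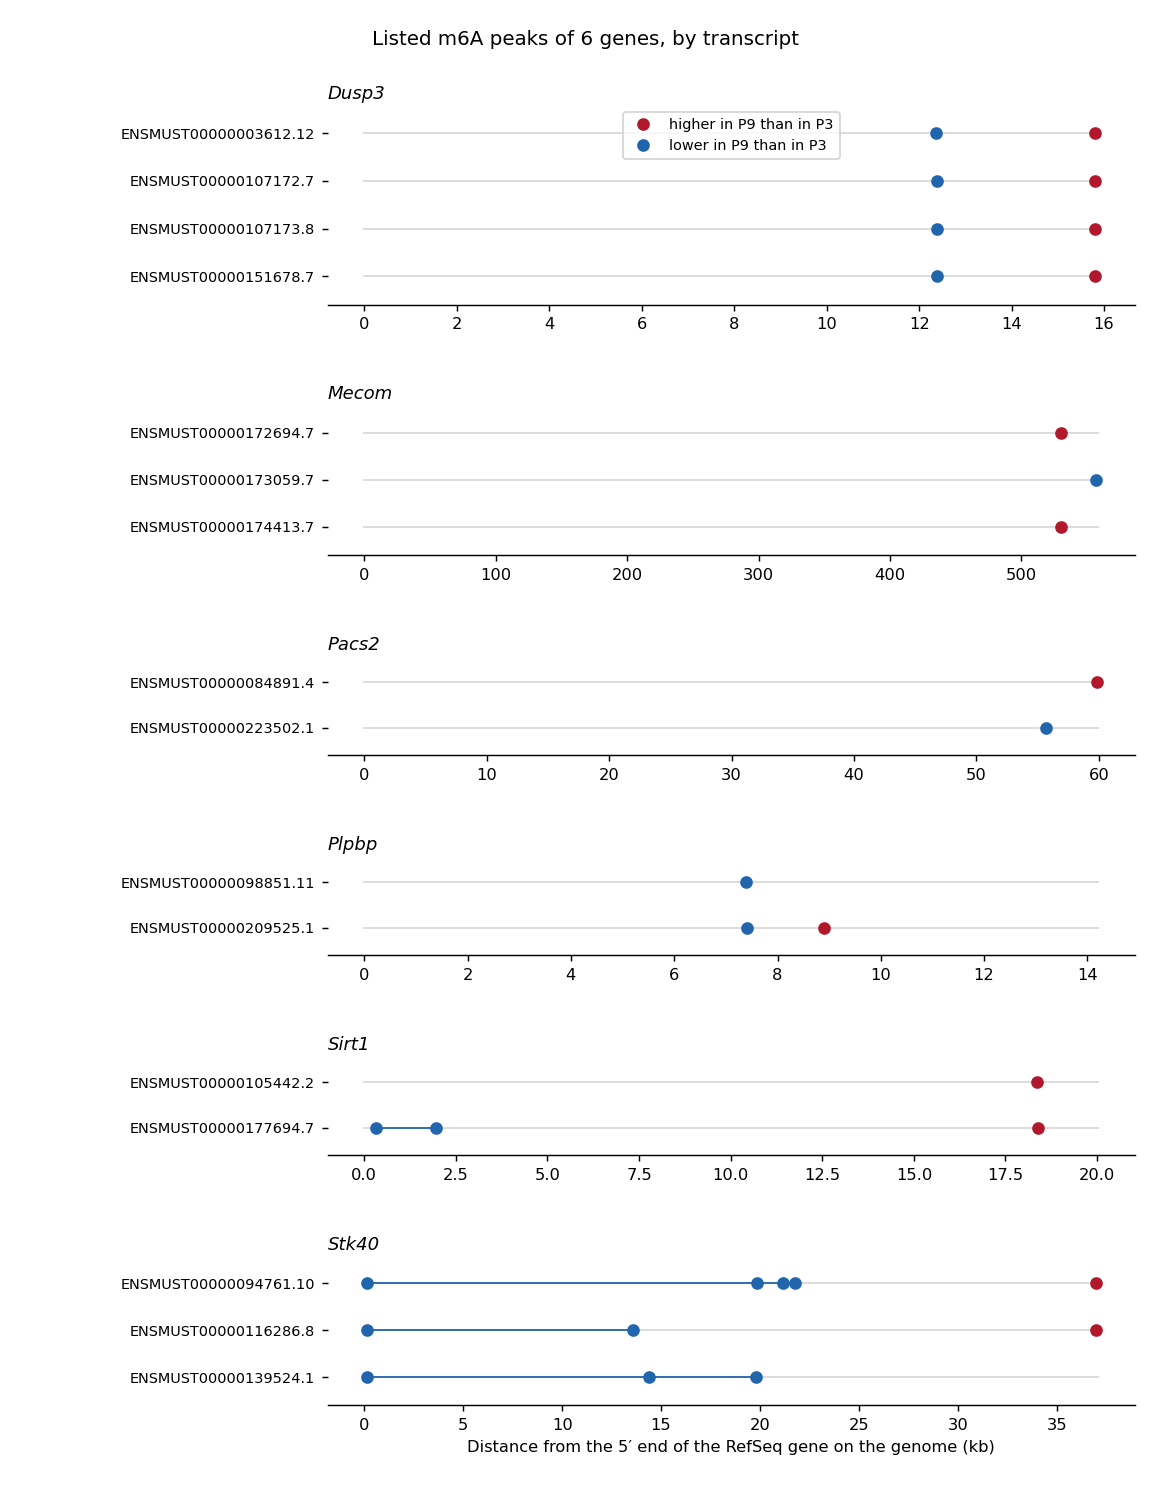
Positions of the listed peaks of the 6 genes, with 1 row per transcript and the distance from the 5′ end of the RefSeq gene in kb on the x axis (each gene has its own scale). Points are the midpoints of the exon blocks of a peak, joined by a line where a peak has several blocks, and are not drawn to the width of the block. Grey lines span the RefSeq gene, not the transcript. The lower site lies 5′ of the higher site in every gene except Mecom.

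Dusp3 encodes a small dual-specificity phosphatase, also called VHR, that acts on the MAP kinases ERK and JNK. It was the gene in which every listed transcript, 4 of 4, carried both changes, and both lay in the 3' UTR on the minus strand of chromosome 11. The higher peak ran from 101971143 to 101971292 on 3 transcripts, where the authors' fold was 1.67 and p = 0.0191 on each. On the fourth, ENSMUST00000107173.8, it reached 1 base further, to 101971293, and the authors' fold was 1.71 and p = 0.0151. The lower site spanned 101974543 to 101974727, and the authors' folds were 0.568 (p = 0.000794) on ENSMUST00000003612.12, 0.575 (p = 0.00234) on ENSMUST00000107173.8, 0.565 (p = 0.00363) on ENSMUST00000151678.7 and 0.604 (p = 0.00550) on ENSMUST00000107172.7. Of the 8 listed Dusp3 peaks the 4 lower ones thus had the smaller p-values, and the 3 higher peaks with the same interval also had the same listed fold and p-value. The 2 sites lay 3249 nt apart. The higher one ended 2 nt from the annotated 3' end of the gene and so covered the last stretch of its 3' UTR. The lower one lay 5' of it. Within 1 transcript the authors' fold at the higher peak was between 2.77 and 2.97 times that at the lower peak. The transcripts were 4084 to 4445 nt long, so that the pair with the 3250 to 3277 nt between its peaks would fit within each of them.

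Sirt1 encodes an NAD-dependent deacetylase of histones and of proteins such as p53 and FoxO factors. Its sites lay near opposite ends of the gene, on the minus strand of chromosome 10. The higher site, from 63320444 to 63320883, crossed from the last coding part into the 3' UTR. On the authors' scale its fold was 1.52 (p = 0.0347) on ENSMUST00000105442.2 and 1.51 (p = 0.0398) on ENSMUST00000177694.7, with 420 nt covered on each. The lower peak was listed for ENSMUST00000177694.7 alone, and the authors' fold there was 0.483 (p = 0.0427). It was coding and covered 300 nt in 2 exon blocks, of 288 nt from 63338565 to 63338852 and of 12 nt from 63337085 to 63337096, and it began 183 nt into the gene. On the 1 transcript listed for both, which is 3353 nt long, the authors' fold at the 3' peak was 3.12 times that at the 5' peak. The 16221 nt between the 2 peaks on that transcript are counted on the genome and exceed its length, so they include introns. The coding lower peak of ENSMUST00000177694.7 was not listed for ENSMUST00000105442.2, whose value there is therefore unknown.

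Stk40 encodes a serine/threonine kinase-like protein related to the Tribbles pseudokinases. It was the gene of the 6 with small p-values at both sites, and the sites lay at both ends of this plus-strand gene of chromosome 4. The higher site, in the 3' UTR from 126140849 to 126141029, ended on the last base of the RefSeq gene. The authors' fold there was 1.97 (p = 0.000355) on ENSMUST00000116286.8 and 1.95 (p = 0.000407) on ENSMUST00000094761.10. The lower site began 90 nt into the gene and was listed for 3 transcripts. For this site the authors' fold was 0.616 (p = 0.00110) on ENSMUST00000094761.10, 0.598 (p = 0.0182) on ENSMUST00000139524.1 and 0.628 (p = 0.0331) on ENSMUST00000116286.8. These 3 lower peaks shared their first exon block, which ended at 126104146 on each and covered 115, 90 and 100 nt. Beyond it ENSMUST00000116286.8 shared no block with the others, while ENSMUST00000094761.10 and ENSMUST00000139524.1 each had a block that began at 126123716. ENSMUST00000116286.8 had 1 further block of 140 nt from 126117464 to 126117603, all in the 5' UTR. The 3 further blocks of ENSMUST00000094761.10 reached to 126125742 and into the coding sequence. On ENSMUST00000139524.1, a transcript of 362 nt, the peak covered 223 nt, or 61.6% of its length. The merged sites lay 15106 nt apart on the genome. Between the peaks of 1 transcript it was 15107 nt on ENSMUST00000094761.10 (3492 nt long) and 23245 nt on ENSMUST00000116286.8 (3860 nt long). These genome distances exceed the transcript lengths, so they include introns. The authors' fold at the higher peak was 3.17 times that at the lower peak on ENSMUST00000094761.10 and 3.13 times on ENSMUST00000116286.8. These ratios were nearly the same, but they are not independent. The lower peaks used other exons downstream of the first, yet the first block and nearly all of the higher peak were common to both transcripts.

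Plpbp encodes a pyridoxal phosphate binding protein that takes part in vitamin B6 homeostasis. Its sites were the closest of the 6 genes, with 1373 nt between them on the plus strand of chromosome 8. The higher peak lay in the 3' UTR of ENSMUST00000209525.1 from 27050773 to 27050892, and the authors' fold was 2.51 and p = 0.0479. This was the largest higher fold of the 6 genes and also their largest p-value. The lower site, from 27049231 to 27049399, crossed the end of the coding sequence into the 3' UTR. Here the authors' fold was 0.640 (p = 0.00407) on ENSMUST00000098851.11 and 0.666 (p = 0.0115) on ENSMUST00000209525.1. The transcripts differ in length, 1368 nt for ENSMUST00000098851.11 and 5767 nt for ENSMUST00000209525.1, and the higher peak was listed only for the longer. On ENSMUST00000209525.1 the authors' fold at the higher peak was 3.77 times that at the lower peak. The higher site lay 5240 nt from the 3' end of the gene, unlike those of Dusp3, Pacs2 and Stk40.

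Pacs2 encodes a sorting protein that acts at contacts between the endoplasmic reticulum and mitochondria. This gene is on the plus strand of chromosome 12. The higher peak was in the 3' UTR of ENSMUST00000084891.4, from 113074251 to 113074401, and ended on the last base of the RefSeq gene. At this end the authors' fold was 1.53 (p = 0.0380). The lower peak was coding, on ENSMUST00000223502.1, from 113070073 to 113070222, and the authors' fold was 0.667 (p = 0.0166). The sites lay 4028 nt apart. No transcript was listed for both, so the opposition was seen only between transcripts of 5480 and 3223 nt. The value of each transcript at the other site is unknown, and so is whether the opposition also held within 1 of them.

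Mecom encodes a zinc finger transcription factor of the PRDM family, also known as EVI1 or PRDM3, with a known role in blood stem cells. It was the gene whose order was the other way round. The higher site was coding and lay on the minus strand of chromosome 3 from 29979626 to 29979957, and the authors' fold was 1.68 (p = 0.0355) on ENSMUST00000174413.7 and 1.65 (p = 0.0380) on ENSMUST00000172694.7. The lower peak, on ENSMUST00000173059.7 from 29952567 to 29952775, crossed from coding sequence into the 3' UTR, 1271 nt from the 3' end of the gene. Of the folds of the 6 genes, the authors' value of 0.361 (p = 0.0186) here was the smallest. The sites were 26850 nt apart on the genome, the widest gap of the 6, and again no transcript was listed for both. The 3 transcripts were 1942, 4381 and 2680 nt long, and the value of each at the site it was not listed for is unknown.

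**Figure D2:**
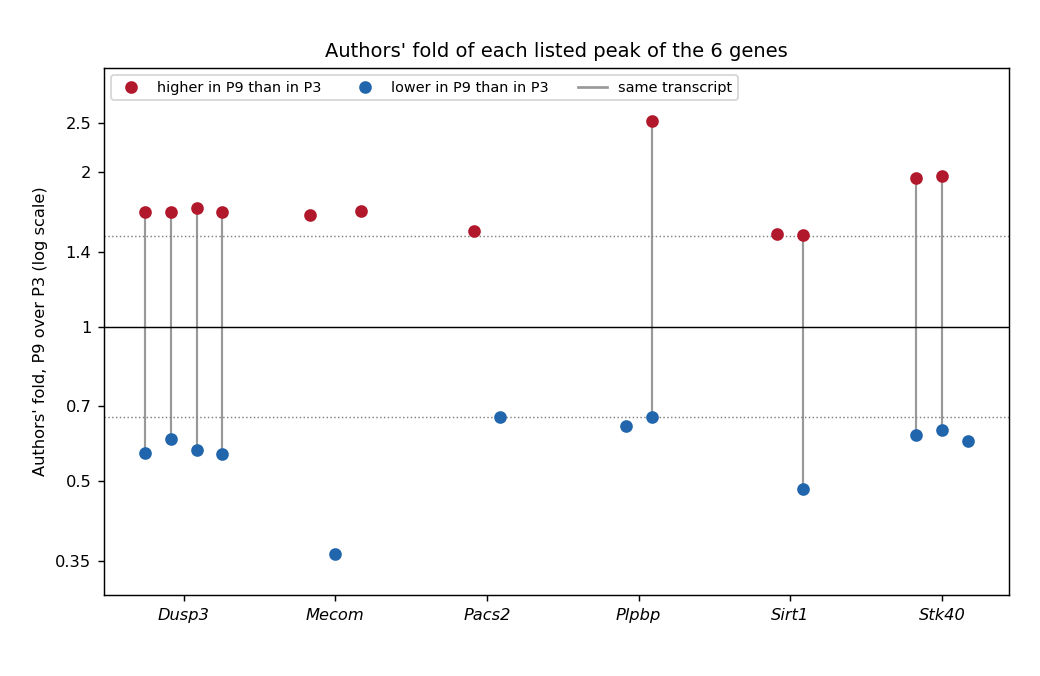
Authors' fold of P9 over P3 for each of the 24 listed peaks of the 6 genes, on a log scale, with 1 column of points per transcript. A grey line joins the 2 peaks of 1 transcript, dotted lines mark the lowest higher fold and the highest lower fold that the tables allow, and no error can be drawn because the tables hold 1 value per peak. Joined pairs are seen in Dusp3, Plpbp, Sirt1 and Stk40, and Pacs2, Plpbp and Sirt1 have values next to the dotted lines.

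Several of these values lay at the edge of what was listed. Over all listed peaks, the lowest fold among the higher ones was 1.50004, the highest among the lower ones 0.666649 and the highest p-value 0.0490, and values just outside are not listed. That highest lower value was the one of Pacs2, at the head of all 203 listed lower peaks. Of the 840 listed higher peaks, 30 had a smaller fold than Sirt1 on ENSMUST00000177694.7 and 15 had a larger p-value than Plpbp. Across the 6 genes the median fold of the higher sites was 1.69, beside 1.73 over all 525 higher sites, and that of the lower sites was 0.592, beside 0.597 over all 132 lower sites. A p-value of at most 0.01 was listed for 1 of the 6 higher sites (Stk40), beside 32.0% of all higher sites, and for 3 of the 6 lower sites (Dusp3, Plpbp and Stk40), beside 47.0% of all lower sites. With peaks at a p-value of at most 0.01 alone, Stk40 was thus the only 1 of the 9 genes that had both directions. At a change of at least 2-fold no gene of the 6 had both.

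The parts of the transcript were not used in choosing the genes. Of the 6 higher sites, 4 lay in the 3' UTR alone (Dusp3, Pacs2, Plpbp and Stk40), the Sirt1 site crossed from coding sequence into the 3' UTR, and the Mecom site was coding. Over all higher sites, 52.8% lay in the 3' UTR alone and 71.4% touched it, beside 66.7% and 83.3% here. Of the 6 lower sites, 3 touched the 3' UTR (Dusp3, Mecom and Plpbp), 1 of them lay in it alone (Dusp3), 5 touched coding sequence and only Stk40 touched the 5' UTR. Over all lower sites, 25.8% touched the 3' UTR and 15.2% lay in it alone, beside 50.0% and 16.7% here, and 68.9% touched coding sequence and 33.3% the 5' UTR. With 6 sites in each direction these shares move by 16.7 percentage points per gene, and no difference from the other genes was tested. The higher sites of the 6 genes covered 120 to 440 nt (median 166 nt, beside 271 nt over all higher sites). The lower sites covered 150 to 596 nt (median 197 nt, beside 239 nt over all lower sites). A site joins the blocks of all its transcripts. The 596 nt were those of Stk40, where no single lower peak covered more than 389 nt.

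The order of the sites was the same in 5 of the 6 genes, with the higher site 3' of the lower site on the strand of the gene, and Mecom was the exception. Among the 3 other genes with both directions 1 had this order, so that it held for 6 of 9 in all. The distance to the ends of the gene was measured against RefSeq on GRCm38.p6, the assembly called mm10, where symbol and chromosome placed 637 of 657 sites. The median distance from the 3' end was 1665 nt over all higher sites and 10097 nt over all lower sites. In the 6 genes it was 720.5 nt for the higher and 5456 nt for the lower sites. Higher sites thus lay nearer the 3' end among all listed sites too, and the order in the 6 genes was not tested against this. The higher sites of Dusp3, Pacs2 and Stk40 ended within 10 nt of the annotated 3' end, 3 of 6. Over all higher sites 83 of 510 (16.3%) did so, and over all lower sites 3 of 127 (2.36%). The lower sites of Sirt1 and Stk40 began within 200 nt of the annotated 5' end, 2 of 6, beside 23 of 127 (18.1%) over all lower sites and 9 of 510 (1.76%) over all higher sites. The annotated end is that of the outermost RefSeq transcript, and the ends of the transcripts in these cells were not used here. The part of transcript ends in these values was not tested.

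**Figure D3:**
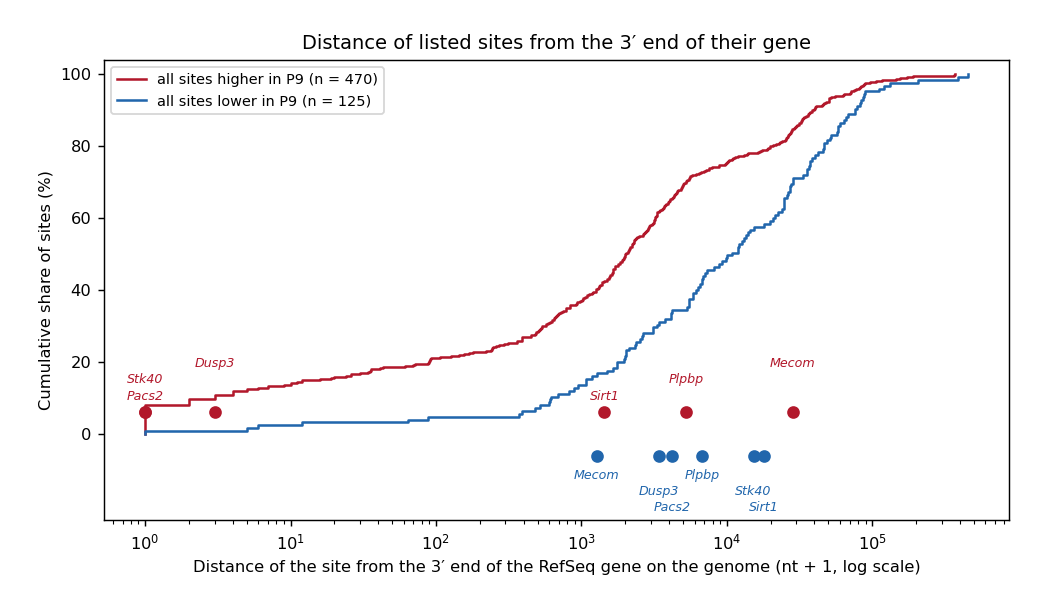
Cumulative share of all sites by their distance from the 3′ end of the RefSeq gene, in nt plus 1 on a log scale, for sites higher (red) and lower (blue) in P9. Points give the sites of the 6 genes, at a height that carries no value, and the 40 higher and 2 lower sites that ended beyond the RefSeq gene are left out. The higher sites of Stk40, Pacs2 and Dusp3 lie at 0 to 2 nt from the end, and those of Sirt1, Plpbp and Mecom at 1439, 5240 and 28330 nt.

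The opposing sites of the 6 genes were a median of 9567 nt apart on the genome, from 1373 nt in Plpbp to 26850 nt in Mecom, with introns included. None of the pairs overlapped. In the 12 genes with several sites in 1 direction the nearest sites were a median of 1376 nt apart, from 83 nt in Peg10 to 48202 nt in Alms1, so that the ranges overlapped. Over all 9 genes with both directions the median was 4028 nt. Sites of the same direction that overlap are merged by construction and opposing sites are not, and the difference was not tested.

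**Figure D4:**
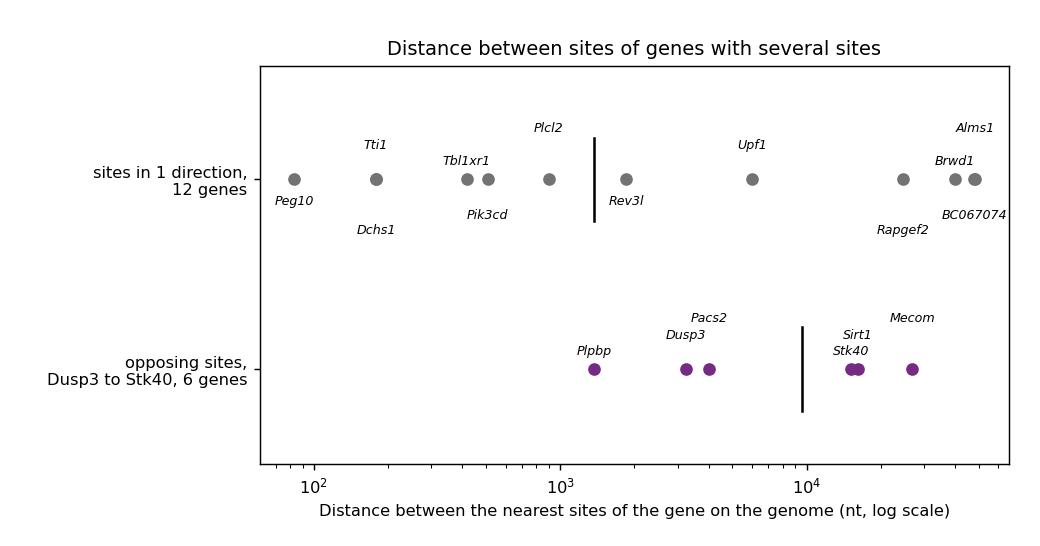
Distance in nt on the genome, on a log scale, between the nearest opposing sites of the 6 genes and between the nearest sites of the 12 genes with several sites in 1 direction. Each point is a gene and each black bar the median of its row. The 6 genes lie between 1373 and 26850 nt, within the range of the 12 genes.

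A peak was listed for 613 of 21900 protein-coding genes in RefSeq (2.80%), in either direction. The 6 genes were chosen for being listed, so their own place among their relatives is no result. Sirt1 was the 1 listed gene of 7 sirtuins. Of 24 dual-specificity phosphatase genes named in RefSeq, Dusp3 had both directions and Dusp16, a phosphatase of JNK and p38, had only a higher site, coding and on chromosome 6, where the authors' fold was 1.65 (p = 0.0204). Of 15 PRDM family genes named in RefSeq, Mecom had both directions and Prdm9, a histone methyltransferase that sets the places of meiotic recombination, had only a higher site, coding and on chromosome 17, where the authors' fold was 2.39 (p = 0.0141). The Tribbles genes Trib1, Trib2 and Trib3 and the Pacs2 relative Pacs1 had no listed peak. None of 21 genes for m6A writers, erasers and readers, Mettl3 included, had a listed peak in either direction, and at a background of 2.80% nothing can be read from this count. A gene without a listed peak may lack a peak or hold peaks that missed the authors' threshold.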

How the data were processed

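MeRIP-seq and input libraries of P3 and P9 MEFs were made by the authors with a stranded mRNA kit and sequenced in paired-end mode. The labels name the build mm10. The labels and methods used here name no aligner or peak caller. The fold (ratio) values are the authors' deposited linear ratios of Treatment to Control, and the p-values are those the authors deposited for the same comparison. Both come from the authors' own comparison and were copied, not recomputed. Other deposited columns hold positions and transcript lengths. Treatment was read as P9 because the sizes of both tables are those the paper gives for P9 against P3. In all 1043 listed peaks the log10 of the p-value lay on steps of 0.01 (within 0.0001) and the log2 of the fold had 3 significant digits, so equal values need not be equal measurements. Counts for single libraries were not used, so no comparison was tested. Starts were counted from 1. The values of 1 withheld item are not reported here. The 6 genes, the gene lists and the comparisons were chosen with earlier results of these data known. All 6 genes, other genes with both directions and listed genes of the family lists were named, and the genes at the ends of the distance range among the 12 other genes were named after their values were seen. Merging, order and distance were tested on simulated peaks. Thresholds, the transcript chosen, the merging and the place were varied. The m6A motif and distances along spliced transcripts were not run because no genome sequence or transcript models were used here. The scripts ran in Python 3.11.15 with matplotlib 3.10.9, pandas 2.3.3, numpy 2.4.6 and scipy 1.17.1.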

Additional observations from a re-analysis of the deposited data

How the results depend on the processing

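With peaks at a p-value of at most 0.01, 1 gene (Stk40) had sites in both directions in place of 9, and 1 of the 6 genes had a transcript listed in both directions and the higher site 3' of the lower one. At a change of at least 2-fold, 1 gene (Zfp235) had both directions, and 0 of the 6 genes had such a transcript or order. These counts fall because fewer peaks are listed. The median distance between opposing sites was 10742 nt between midpoints in place of 9567 nt, and 9177.5 nt over the 4 genes with a shared transcript, an alternative chosen after seeing the data. For the 6 genes, the median fold of the higher sites was 1.66 with the transcript of the largest p-value in place of 1.69. Over all higher listed peaks of the 6 genes it was 1.67. The corresponding values of the lower sites were 0.616 and 0.601 in place of 0.592. Counted as 3' UTR alone in place of touching the 3' UTR, the share of the lower sites was 16.7% in place of 50.0% and that of the higher sites 66.7% in place of 83.3%. Counted by listed peak of the 6 genes in place of by site, 58.3% of their lower and 83.3% of their higher peaks touched it. Grouping by RefSeq identifier, merging blocks within 100 nt and ordering by midpoints left the counts and medians as they were. No paired analysis was possible because the deposited tables hold no values per library. The depth per library is unknown, so its limits on these peaks could not be given.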

Other observations

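Genes outside the 6 that had sites in both directions included Zfp235 and Zfp618. In the zinc finger gene Zfp235 both sites lay in the 3' UTR of 1 transcript on the plus strand of chromosome 7, 446 nt apart, and the authors' fold was 2.97 (p = 0.00933) at the 5' site and 0.247 (p = 0.0170) at the 3' site. The authors' fold of the higher Zfp235 peak was 12.04 times that of the lower peak, beside 2.77 to 3.77 times within the transcripts of Dusp3, Plpbp, Sirt1 and Stk40. In the zinc finger gene Zfp618 the lower site lay in the 5' UTR of a transcript of 1582 nt, where the authors' fold was 0.301 (p = 0.0117), while 2 higher sites, with authors' folds of 1.66 and 1.57, lay on another transcript of 8826 nt.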
